A study of Mus musculus with 16 samples.

Results

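Bmp2, Bmp6, Wnt2, Rspo3, Dnase1l3, Stab1, Stab2, Pecam1, Kdr and Clec4g are sinusoidal endothelial and angiocrine genes of the liver, and their transcripts were followed across 4 diets in mice that age prematurely. The 10 genes were chosen by symbol, as markers of sinusoidal endothelium or as ligands it sends to hepatocytes, and all 10 were found among the 54752 genes of the count table. Liver RNA was sequenced from 16 male mice aged 11 weeks, F1 hybrids of C57BL6J and FVBN, with 4 animals per diet. Every animal carried the Ercc1 d/- genotype (Ercc1Δ/−), a truncated and a null allele of an endonuclease subunit needed for DNA repair, so no group with intact repair stands beside the diets. The high-protein group ate a diet labelled with protein at about 194% and carbohydrate at 70%, the low-protein group one with protein at 70% and carbohydrate at about 112%, and the low-fat group one with fat at 70% and carbohydrate at about 112%. The control group stayed on the standard AIN93G pellets that all animals had received until 8 weeks of age, and the altered diets replaced these from then on, matched for energy and eaten freely. Shared litters or cages are not named in the labels, and the spread behind each p-value is that between these 16 animals.

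Liver sinusoids are lined by a fenestrated endothelium without a continuous basement membrane, which clears waste molecules from portal blood through scavenger receptors. The same cells release signals to the hepatocytes beneath them. Bmp2 and Bmp6 encode bone morphogenetic proteins (BMPs) that make hepatocytes produce hepcidin, the hormone that limits iron uptake, through receptors, SMAD proteins and the co-receptor hemojuvelin. Wnt2 and Rspo3, produced by endothelium near the central vein, maintain the pericentral program of hepatocytes, R-spondins by sparing Wnt receptors from removal.

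Promoter sequences were taken from RefSeq (build GRCm38.p6), which gave a window from 250 bases before to 50 bases after the start for 6 of the 10 genes: Bmp6, Wnt2, Stab1, Stab2, Kdr and Clec4g. Both strands were searched for AGATAA, a core of GATA factor sites, and AGGAAG, a core of ETS factor sites, since factors of both families act in endothelium. Only these exact letters were searched, so other forms of either site are not counted. AGATAA was in none of the 6 windows, against 11.2% of 32851 windows of all genes, and AGGAAG or its reverse complement CTTCCT was in 3 of 6, against 35.4%. The 3 windows with the ETS letters are those of the scavenger receptors Stab1 and Stab2 and of the lectin Clec4g. They are shown with that of Wnt2, the gene whose TMM-scaled high-protein levels stood above every low-protein and low-fat one. The Wnt2 window held neither of the exact sequences searched. Capitals mark AGGAAG and CTTCCT, and in Clec4g 2 of the 3 matches overlap.
Stab1 (chr14:31168592-31168891, minus strand): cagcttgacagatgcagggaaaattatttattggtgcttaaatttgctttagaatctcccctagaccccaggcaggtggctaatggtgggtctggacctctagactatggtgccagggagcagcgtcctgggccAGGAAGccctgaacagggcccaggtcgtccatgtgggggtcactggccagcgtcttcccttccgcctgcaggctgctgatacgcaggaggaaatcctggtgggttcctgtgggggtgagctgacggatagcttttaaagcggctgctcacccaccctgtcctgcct
Stab2 (chr10:87007893-87008192, minus strand): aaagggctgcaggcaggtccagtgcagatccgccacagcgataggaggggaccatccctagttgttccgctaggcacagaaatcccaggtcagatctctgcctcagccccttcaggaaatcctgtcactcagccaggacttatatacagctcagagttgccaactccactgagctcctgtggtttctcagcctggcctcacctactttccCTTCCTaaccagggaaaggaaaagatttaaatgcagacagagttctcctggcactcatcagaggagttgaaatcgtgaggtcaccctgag
Clec4g (chr8:3720602-3720901, minus strand): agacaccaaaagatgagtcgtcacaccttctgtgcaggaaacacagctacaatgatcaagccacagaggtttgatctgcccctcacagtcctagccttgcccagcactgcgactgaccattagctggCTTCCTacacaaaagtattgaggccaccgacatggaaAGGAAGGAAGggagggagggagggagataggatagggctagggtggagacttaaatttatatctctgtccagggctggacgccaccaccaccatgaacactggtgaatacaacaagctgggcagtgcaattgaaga
Wnt2 (chr6:18030396-18030695, minus strand): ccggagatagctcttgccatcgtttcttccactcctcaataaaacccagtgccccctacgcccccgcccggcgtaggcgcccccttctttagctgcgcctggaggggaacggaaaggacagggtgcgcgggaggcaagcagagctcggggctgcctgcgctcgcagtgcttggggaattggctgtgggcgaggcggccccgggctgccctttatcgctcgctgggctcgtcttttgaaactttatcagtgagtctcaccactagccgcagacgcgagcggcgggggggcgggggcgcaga
The match in Stab1 begins at position 135 of its window and that in Stab2 at position 211, counted from 1 at the 5′ end, with the start site after position 250. The matches in Clec4g begin at positions 128, 165 and 169. A match describes these letters and is not evidence of binding.

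Library totals ran from 35243594 to 112789127 counts, with low-fat replicate 2 the deepest and the next at 46899907. Ercc1 itself was counted 46 to 175 times per library, at 1.27 to 2.01 CPM (counts per 1000000 counts of library size, here scaled by TMM normalisation factors). These factors lay between 0.92 and 1.06 in 14 libraries, at 1.16 in control 3 and at 0.778 in control 4. RNA of kidney was found in most of these livers. A sum over 17 kidney genes gave 1.1 to 1407 CPM with high protein, 609 to 1146 CPM with low protein, 941 to 2680 CPM with low fat and 84.6 to 4198 CPM in control. No gene of the 17833 that passed the low-count filter differed between any diets at an adjusted p of 0.05 in the edgeR quasi-likelihood test.

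All 10 genes passed the filter and none was called, in any of the 6 pairs of diets or over the 4 diets together, against 0% of the genes tested in each. DESeq2 called 79 genes over the 4 diets and 0 to 81 per pair, none of them among the 10. At an unadjusted p under 0.05, 1 of the 10 passed between high and low protein (5.17% of genes tested), 1 between low protein and control (7.08%) and 0 in the other 4 pairs, which were high protein against control (6.22%), low fat against control (9.22%), high protein against low fat (9.08%) and low fat against low protein (2.38%). In both cases the gene was Bmp2. Over the 4 diets together 0 of the 10 passed, against 6.59% of genes tested. Many of the differences are given with an interval or SE, since a p that misses the threshold does not show that diets gave equal levels.

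Bmp2 (ENSMUSG00000027358.6, chromosome 2, 133552159 to 133562885, GRCm38) encodes the BMP ligand that sinusoidal cells produce steadily and that keeps hepcidin expressed. Its level was 15.6, 10.2, 15.2 and 17.4 CPM in the high-protein livers, 9.29, 8.90, 9.35 and 9.21 CPM in the low-protein livers, 11.1, 8.44, 8.89 and 12.7 CPM in the low-fat livers and 7.69, 12.4, 11.8 and 29.0 CPM in the control livers. The high-protein libraries all lay above the low-protein ones, the low-protein animals were close to each other, and control 4 was the highest of all 16. Bmp2 averaged 14.6 ± 3.08 CPM with high protein and 9.19 ± 0.199 CPM with low protein (SD, n = 4 each). The log2 fold change of high over low protein was 0.67 (95% interval 0.02 to 1.32, edgeR unadjusted p = 0.0453, adjusted 0.960). It was 0.59 to 0.80 with any 1 library left out. Against control, which averaged 15.2 ± 9.40 CPM, the log2 fold change was -0.06 for the high-protein livers (95% interval -0.71 to 0.59), -0.73 for the low-protein livers (-1.38 to -0.08) and -0.57 for the low-fat livers (-1.22 to 0.08). The low-protein value had an edgeR unadjusted p of 0.0311 (adjusted 0.682). Without control 4 these 3 values were 0.45, -0.23 and -0.08, so the distance of the diets from control moved with that library.

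Bmp6 (ENSMUSG00000039004.6, chromosome 13, 38345107 to 38500302) encodes the BMP ligand that sinusoidal endothelium makes in response to iron. Its level was 5.97, 7.38, 5.74 and 8.80 CPM with high protein, 7.46, 6.02, 6.39 and 6.11 CPM with low protein, 7.33, 6.32, 9.87 and 11.3 CPM with low fat and 3.28, 5.10, 12.2 and 12.6 CPM in control. Controls 1 and 2 were the lowest of the 16 libraries and controls 3 and 4 the highest, so every library of the altered diets lay inside the range of the controls. By library totals low-fat 3 and 4 were above control 4, and control 3 was the highest. The log2 fold change against control was -0.26 in the high-protein, -0.36 in the low-protein and 0.06 in the low-fat livers. Their 95% intervals were -0.98 to 0.47, -1.09 to 0.37 and -0.66 to 0.79, with edgeR adjusted p-values of 0.856, 0.786 and 0.959. Of the 4 highest libraries for Bmp6, control 3, low-fat 3 and low-fat 4 held the most kidney RNA (4198, 2680 and 2493 CPM), while the highest, control 4, held 299 CPM. With the kidney level in the model the low-fat value was -0.08, and the part of kidney RNA in the level of Bmp6 was not tested. Bmp6 overlaps the genes Txndc5 and 4930579J19Rik on the other strand, and no strand setting of the counting is given in the sources used here.

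Wnt2 (ENSMUSG00000010797.6, chromosome 6, 17988940 to 18030585) encodes a Wnt ligand of central-vein and pericentral sinusoidal endothelium. It had the fewest reads of the 10 genes, 36 to 238 per library. Its level was 2.98, 2.7, 2.98 and 2.78 CPM with high protein, 2.56, 2.14, 2.42 and 2.08 CPM with low protein, 2.48, 1.99, 2.14 and 2.62 CPM with low fat and 1.05, 1.74, 2.09 and 4.60 CPM in control. The lowest high-protein library was above the highest low-protein and low-fat library, but by less than the counting error of 1 library, and not by library totals without TMM factors, where high-protein 4 (2.56 CPM) was below low-protein 1 (2.60 CPM, 98 reads) and low-fat 4 (2.69 CPM). High-protein 2, at 2.7 CPM from 102 reads, had an exact 95% Poisson interval of 2.20 to 3.28 CPM, and low-fat 4, at 2.62 CPM from 99 reads, one of 2.13 to 3.19 CPM. The log2 fold change of high over low protein was 0.31 (95% interval -0.37 to 1.00, edgeR unadjusted p = 0.346, adjusted 0.998) and of high protein over low fat 0.31 (-0.37 to 0.99, edgeR adjusted p = 0.768).

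Rspo3 (ENSMUSG00000019880.10, chromosome 10, 29452416 to 29535867) encodes the R-spondin of central-vein endothelium. Its level was 4.66, 3.07, 4.82 and 5.34 CPM with high protein, 5.91, 5.09, 5.06 and 4.63 CPM with low protein, 5.27, 3.77, 4.59 and 4.82 CPM with low fat and 4.59, 4.74, 4.77 and 5.99 CPM in control. Its groups overlapped in every pair, high-protein 2 was the lowest of the 16 libraries, and it was the 1 gene of the 10 that was lower with high than with low protein (log2 fold change -0.21, 95% interval -0.60 to 0.18, edgeR adjusted p = 0.995). Its spread among controls, a coefficient of variation of 12.9%, was the smallest of the 10 genes. The predicted genes Gm20276 and Gm48159 overlap Rspo3.

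**Figure D1:**
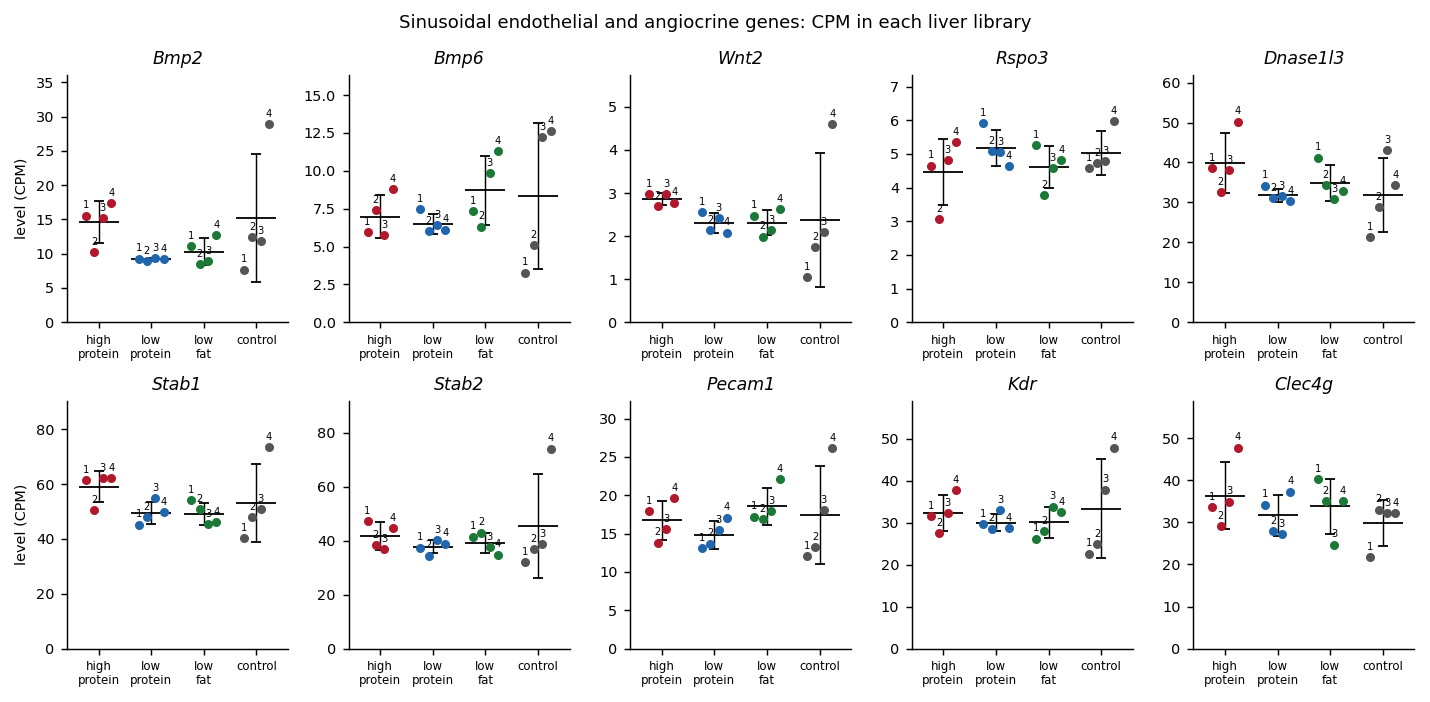
Level of each of the 10 genes in CPM (TMM-scaled, y axis from 0) in every liver library; points are animals marked by replicate number, with the mean and SD of each diet (n = 4). On this scale control 4 is the highest library for 8 genes (3 by library totals) and control 1 the lowest for 9, and the high-protein points of Bmp2 and Wnt2 lie above the low-protein points.

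Stab1 (ENSMUSG00000042286.13, chromosome 14, 31139013 to 31168641) and Stab2 (ENSMUSG00000035459.18, chromosome 10, 86841198 to 87008025) encode the stabilins, the large scavenger receptors with which sinusoidal cells take up hyaluronan, modified lipoproteins and matrix fragments. Stab1 was at 61.5, 50.4, 62.1 and 62.1 CPM with high protein, 45.2, 48.0, 54.9 and 49.8 CPM with low protein, 54.0, 50.8, 45.5 and 46.2 CPM with low fat and 40.2, 47.9, 50.8 and 73.5 CPM in control. Of the high-protein livers 3 were nearly equal and stood above every library of the other altered diets, while high-protein 2 lay among them. The log2 fold change of Stab1 was 0.25 over low protein and 0.27 over low fat, with 95% intervals of -0.08 to 0.59 and -0.07 to 0.60 and edgeR adjusted p-values of 0.972 and 0.598. Stab2 was at 47.3, 38.2, 36.8 and 44.5 CPM with high protein, 37.4, 34.4, 40.1 and 38.9 CPM with low protein, 41.5, 43.0, 37.6 and 34.8 CPM with low fat and 31.9, 36.8, 38.6 and 74.1 CPM in control. Here control 4 was far above the other 15 libraries, which ran from 31.9 to 47.3 CPM. Its log2 fold change of high over low protein was 0.15 (95% interval -0.29 to 0.58, edgeR adjusted p = 0.998). Nt5dc2 overlaps Stab1 and 5 predicted genes overlap Stab2, all on the other strand.

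Dnase1l3 (ENSMUSG00000025279.7, chromosome 14, 7964533 to 7994573) encodes a secreted nuclease that degrades DNA in chromatin particles, made in liver by sinusoidal endothelium and Kupffer cells. It was at 38.5, 32.6, 38.0 and 50.2 CPM with high protein, 34.2, 31.1, 31.5 and 30.4 CPM with low protein, 41.2, 34.4, 30.9 and 32.8 CPM with low fat and 21.4, 28.8, 43.1 and 34.3 CPM in control. Its log2 fold change of high over low protein was 0.33 (95% interval -0.06 to 0.72, edgeR adjusted p = 0.962) and that over control 0.32 (-0.07 to 0.71, edgeR adjusted p = 0.762). With high-protein 4 left out the value over low protein was 0.21. Clec4g (ENSMUSG00000074491.9, chromosome 8, 3707064 to 3720651), the C-type lectin LSECtin of sinusoidal cells, was at 33.7, 29.2, 35.0 and 47.8 CPM with high protein, 34.2, 27.9, 27.3 and 37.3 CPM with low protein, 40.3, 35.1, 24.7 and 35.2 CPM with low fat and 21.7, 33.1, 32.3 and 32.3 CPM in control. Both genes were highest in high-protein 4 and lowest in control 1. Clec4g differed by a log2 fold change of 0.29 from control with high protein (95% interval -0.11 to 0.69, edgeR adjusted p = 0.763) and by 0.20 from low protein (-0.20 to 0.60, edgeR adjusted p = 0.995).

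Pecam1 (ENSMUSG00000020717.19, chromosome 11, 106654217 to 106750628) encodes the junctional adhesion molecule CD31, present on endothelium of every organ and on platelets and some leukocytes. It was at 17.9, 13.8, 15.6 and 19.7 CPM with high protein, 13.1, 13.7, 15.4 and 17.1 CPM with low protein, 17.2, 16.9, 17.9 and 22.1 CPM with low fat and 12.1, 13.3, 18.0 and 26.2 CPM in control. The low-fat livers were the highest of the altered diets, with a log2 fold change of 0.32 over low protein (95% interval -0.12 to 0.77, edgeR unadjusted p = 0.140, adjusted 1). Kdr (ENSMUSG00000062960.10, chromosome 5, 75932827 to 75978458), which encodes the main signalling receptor for VEGF-A, was at 31.5, 27.5, 32.3 and 37.7 CPM with high protein, 29.6, 28.5, 32.9 and 28.7 CPM with low protein, 26.2, 27.9, 33.8 and 32.6 CPM with low fat and 22.6, 24.8, 37.8 and 47.8 CPM in control. The altered diets lay close together for Kdr, and its smallest edgeR unadjusted p over the pairs was 0.447. Its 95% intervals against control were -0.46 to 0.37 in the high-protein livers, -0.57 to 0.26 in the low-protein livers and -0.56 to 0.27 in the low-fat livers on the log2 scale.

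Levels of different genes were compared per kilobase (kb) of exon. Clec4g was highest, at 13.4 ± 2.51 CPM per kb (SD over 16 libraries), followed by Dnase1l3 at 6.72 ± 1.29, Stab1 at 5.12 ± 0.820 and Stab2 at 4.68 ± 1.10 CPM per kb. Kdr at 3.47 ± 0.675 and Bmp2 at 3.47 ± 1.48 CPM per kb did not differ beyond their spread, Kdr being the higher in 10 of 16 libraries. Pecam1 was at 2.71 ± 0.585, Bmp6 at 1.95 ± 0.683, Rspo3 at 1.56 ± 0.229 and Wnt2 at 1.09 ± 0.335 CPM per kb. Each gene was above the next in 13 to 16 libraries, except Kdr over Bmp2 and Bmp6 over Rspo3 (11 of 16). The receptors and surface proteins had higher levels per kb than 3 of the 4 secreted signals, and Bmp2 had the level of Kdr.

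The libraries moved together over the 10 genes. Control 1 was the lowest control for all 10 and the lowest of the 16 libraries for 9, and control 4 was the highest control for 8 and the highest of the 16 for the same number. The place of control 4 depended on its TMM factor. By library totals it was the highest of the 16 for 3 genes, Bmp2, Wnt2 and Stab2, while control 3 was the highest control for 7 genes and the highest of the 16 for 3. Control 1 was the lowest of the 16 for 9 genes on both scales. The summed level of the 10 genes was 215 to 296 CPM with high protein, 206 to 225 CPM with low protein, 216 to 247 CPM with low fat and 167, 209, 252 and 340 CPM in controls 1 to 4. The median coefficient of variation of the 10 genes between animals was 17.0% in high-protein, 9.08% in low-protein, 13.0% in low-fat and 36.1% in control livers. Relative to library totals without TMM factors, the controls ran from 163 to 291 CPM, with control 3 as the highest. In bulk liver, fewer endothelial cells and less RNA per cell cannot be told apart. The sum of 8 hepatocyte markers was highest in control 4 too, at 132880 CPM against 65136 to 108210 CPM in the other 15 libraries. Of these markers, Tat was at 21329 CPM in control 4 and 938 to 1214 CPM in the other controls. Pck1 was at 16339 CPM against 2181 to 2729 CPM, so the sum does not show a rise of hepatocyte markers as a class. Kupffer cell markers were not raised in control 4, at 213.5 CPM against 219.6 to 407.5 CPM. The part of these cell types in the level of the 10 genes was not tested.

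**Figure D2:**
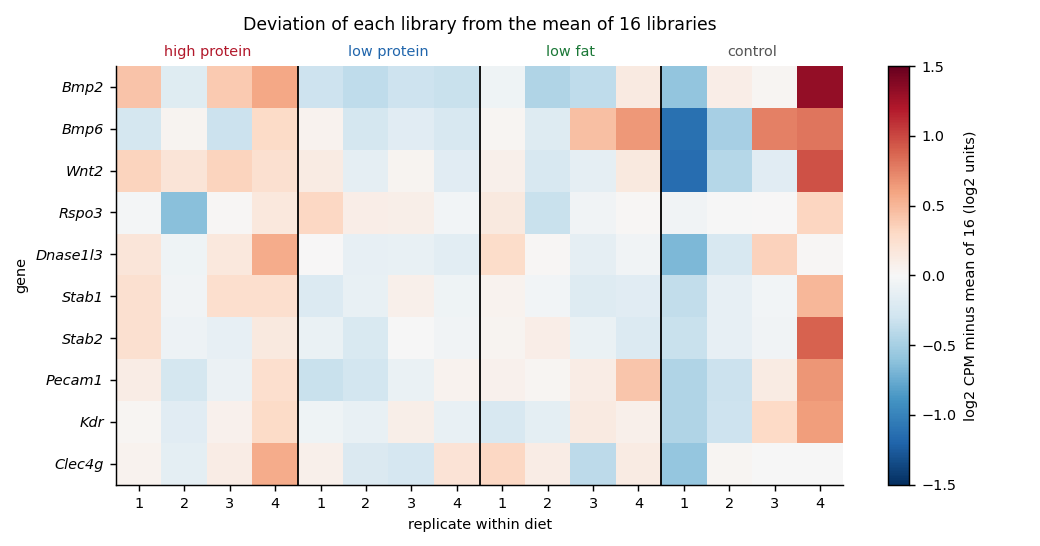
Log2 CPM of each gene minus its mean over the 16 libraries (colour, in log2 units, TMM-scaled) for the 4 replicates of each diet. Control 1 is blue for 9 genes and close to 0 for Rspo3, control 4 is red for 8 genes and close to 0 for Dnase1l3 and Clec4g, and low-protein columns are pale.

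High protein was set against low protein to compare the diets with the highest and lowest protein content. Carbohydrate differs the other way in this pair, at 70% against about 112%, so protein and carbohydrate cannot be told apart. Of the 10 genes 9 were higher with high protein, against 47.5% of all genes tested, and the median log2 fold change was 0.19, against -0.02 over all genes. The exception was Rspo3. Since the libraries moved together over the 10 genes, the count is not one of independent genes. Bmp2 and Wnt2 were the genes whose 4 high-protein libraries all exceeded the 4 low-protein ones, a separation shown by 3.15% of all genes tested in that direction, and 0 of the 10 had the opposite separation (3.47%). No single difference passed the adjusted threshold. The count was 9 of 10 with any 1 library left out, except without high-protein 4, where Bmp6 also turned and it was 8 of 10 with a median of 0.11. By library totals it was 9 of 10 with a median of 0.12, and Wnt2 no longer had separate groups. Erythroid markers were also highest in high-protein 4, at 1367 CPM against 365 to 680 CPM in the other high-protein libraries and 345 to 600 CPM with low protein. Summed kidney markers were 1.1 to 1407 CPM with high protein and 609 to 1146 CPM with low protein, with 3 of 17 kidney genes higher, or 10 of 17 without high-protein 1. Stellate cell markers (431 to 537 and 445 to 520 CPM) and Kupffer cell markers (224 to 303 and 227 to 348 CPM) had overlapping sums with high and low protein, with 5 of 12 and 5 of 10 genes higher. The Kupffer count was 3 of 10 without low-protein 3 and 8 of 10 without low-protein 4. The part of these cells in the result was not tested.

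High protein over low fat gave 7 of 10 genes higher (47% of all genes tested) and a median log2 fold change of 0.10, or 0.02 by library totals with the same count. Wnt2 was the 1 gene of the 10 with all high-protein libraries above the low-fat ones (4.23% of all genes tested) and 0 had all of them below (3.99%), while the values of Bmp6, Rspo3 and Pecam1 were lower. Low fat over low protein gave 8 of 10 higher (50.4% of all genes tested) with a median of 0.08, and 0 of the 10 had all low-fat libraries above (2.35%) or below (2.14%) the low-protein ones. Its largest difference was that of Bmp6, at 0.42 on the log2 scale (95% interval -0.31 to 1.15, edgeR adjusted p = 1). The 17 kidney genes, whose sums by diet are given above, were all lower with high protein than with low fat and all higher with low fat than with low protein. Kupffer cell markers were likewise higher in 0 of 10 with high protein against low fat (median -0.17) and in 10 of 10 with low fat against low protein (0.17, or 6 of 10 and 0.05 without low-fat 2). Cholangiocyte markers were higher in 0 of 7 (-0.65) and in 6 of 7 (0.77). The part of these cells in the counts of the 10 genes was not tested.

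Against control the counts were 4 of 10 genes higher with high protein (41.7% of all genes tested), 2 of 10 with low protein (45.6%) and 4 of 10 with low fat (47.6%), with medians of -0.05, -0.13 and -0.07 beside -0.06, -0.03 and -0.02 over all genes. Of the 10 genes 0 had separate groups, against 1.12% of all genes above and 0.841% below control with high protein, 1.61% and 0.869% with low protein, and 1.27% and 1.32% with low fat. The comparisons share the control libraries. Without control 4, 9 of 10 genes were higher in the high-protein livers, 8 in the low-protein livers and 8 in the low-fat livers, with medians of 0.27, 0.06 and 0.12, and the all-gene medians were between -0.02 and -0.01. Without control 1 the counts were 4, 1 and 1 and the medians -0.18, -0.29 and -0.22. With voom and sample quality weights, where control 4 had a weight of 0.0965 and the other libraries 0.395 to 1.95, 9 of 10 genes were above control in the high-protein livers, 9 in the low-protein livers and 8 in the low-fat livers. The direction of the 10 genes against control turned with 1 control library.

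**Figure D3:**
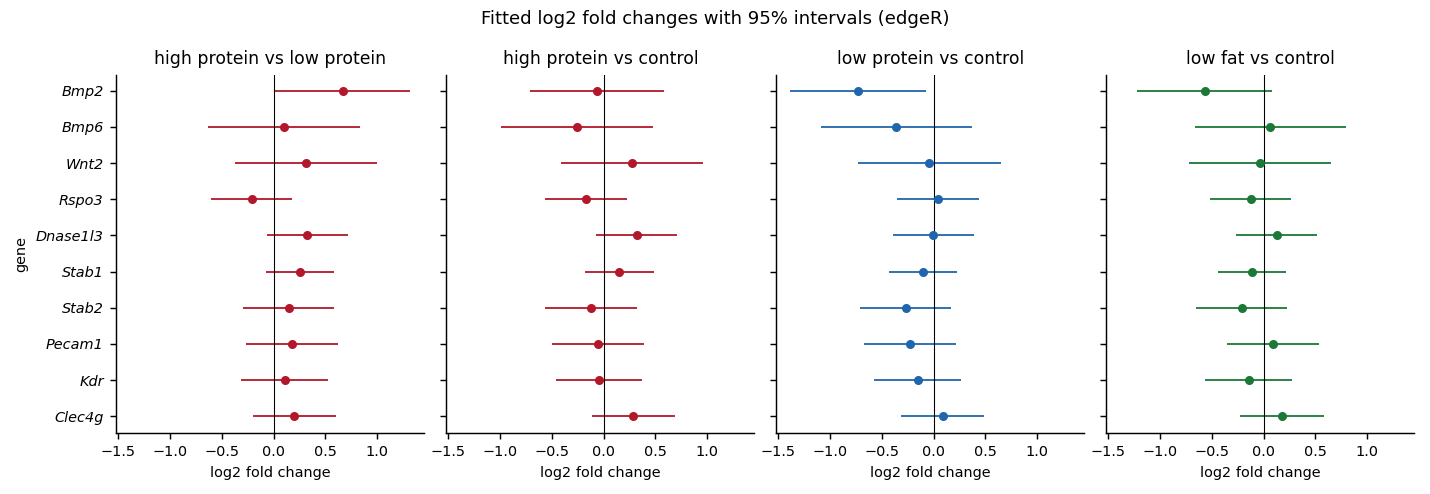
Fitted log2 fold changes (points, x axis) with 95% intervals for the 10 genes in 4 comparisons of diets. In high against low protein 9 of 10 points lie right of 0 and the interval of Bmp2 alone leaves 0 out; against control every interval spans 0 except that of Bmp2 with low protein.

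Gene length is of interest because the series title names a length-dependent decline of transcription. The genomic spans of the 10 genes run from 10.7 kb (Bmp2) and 13.6 kb (Clec4g) to 155.2 kb (Bmp6) and 166.8 kb (Stab2). The log2 fold change of high protein over control was -0.06 and 0.29 for the short pair and -0.26 and -0.12 for the long pair, each with an interval that includes 0. Over low protein the same genes had 0.67, 0.20, 0.10 and 0.15. The genes of intermediate span were, from short to long, Stab1, Dnase1l3, Wnt2, Kdr, Rspo3 and Pecam1. Over control they had 0.15, 0.32, 0.27, -0.05, -0.17 and -0.05. Their values over low protein were 0.25, 0.33, 0.31, 0.11, -0.21 and 0.17. A relation to length was not tested.

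Other endothelial genes, from lists compiled with earlier results of these data known, were set beside the 10. Of 14 further sinusoidal markers 12 were higher with high than with low protein (median log2 fold change 0.27), as were 12 of 15 genes expressed by endothelium in general (0.22) and 7 of 12 genes of large vessels and capillaries (0.04), and 0 were called. The share of all genes tested was 47.5%. These genes are expressed by endothelium like the 10, so their counts are not independent of that of the 10. Without high-protein 4 the sinusoidal and general counts were 10 of 14 (0.15) and 12 of 15 (0.15), and without low-protein 1 the large-vessel count was 5 of 12 (-0.02). With low fat against low protein 14 of 14 further sinusoidal markers (0.11) and 13 of 15 general endothelial genes (0.20) were higher, again with 0 called. The share of all genes tested was 50.4% in this pair, and 17 of 17 kidney genes were higher. Without low-fat 1 the sinusoidal count was 11 of 14 (0.06), and without low-protein 2 the general count was 11 of 15 (0.10). The sum of the further sinusoidal markers was highest in control 3 (970 CPM), low-fat 4 (717 CPM) and low-fat 3 (702 CPM), the libraries with the most kidney RNA, and 404 to 500 CPM with low protein, and the part of kidney RNA in it was not tested. Thbd, Klf2, Inhbb and Col4a1 were picked as genes with the smallest p over the 4 diets in their lists. So were Hjv, Smad1, Smad6, Oat, Slc1a2, Nrp1, Vegfa and Folr2, named further on. Low p-values and separate groups among these genes follow in part from that choice. Of all genes tested, 3.15% had every high-protein library above the low-protein ones, and 2.35% every low-fat library above them. All high-protein libraries lay below the low-fat ones in 3.99%. Thbd, the thrombin receptor thrombomodulin, was at 5.27, 5.01, 5.63 and 5.93 CPM with low fat and 3.61, 2.23, 2.85 and 2.71 CPM with low protein, with no overlap (log2 fold change 0.94, SE 0.37, edgeR unadjusted p = 0.0230, adjusted 1). Klf2, the flow-induced transcription factor of endothelium, was at 8.82, 6.19, 7.71 and 10.9 CPM with high protein and 5.57, 5.11, 4.72 and 4.36 CPM with low protein, with no overlap (log2 fold change 0.77, SE 0.32, edgeR unadjusted p = 0.0300, adjusted 0.947). Inhbb, which encodes the subunit of activin B, was at 5.25, 2.06, 4.06 and 5.05 CPM with high protein and 1.02, 1.61, 0.723 and 0.987 CPM with low protein, again without overlap (log2 fold change 1.92, SE 0.66, edgeR unadjusted p = 0.0106, adjusted 0.921). In control 4 Klf2 was at 11.6 and Inhbb at 12.2 CPM. Col4a1, a collagen chain of basement membranes, was lower with high protein than with low fat in every library (log2 fold change -0.48, SE 0.14, edgeR adjusted p = 0.411). Wnt9b, the other Wnt of central-vein endothelium, was at 2.21, 1.03, 1.68 and 2.24 CPM with high protein and 0.958, 1.01, 1.33 and 0.982 CPM in control (log2 fold change 0.74, SE 0.30, edgeR adjusted p = 0.762).

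Lyve1, the hyaluronan receptor of sinusoidal and lymphatic endothelium, was at 25.0 CPM in control 4 and at 1.92 to 4.93 CPM in the other controls. It was at 3.26 to 6.34 CPM with high protein, 2.62 to 4.23 CPM with low protein and 2.51 to 4.34 CPM with low fat. Gpr182, an atypical chemokine receptor of sinusoids, and Fcgr2b, the Fc receptor of sinusoidal cells, did not follow control 4. Gpr182 was at 12.0 to 21.3 CPM with high protein and 10.1 to 14.3 CPM in control, where control 4 was the lowest. Fcgr2b was at 23.6 to 36.3 CPM with high protein and 24.0 to 31.6 CPM in control, with control 4 at 27.6 CPM.

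The receiving side of the BMP signal was described from 18 receptors and hepcidin regulators and 9 target genes of hepatocytes. With high against low protein 7 of 18 regulators and 2 of 9 targets were higher, with medians of -0.04 and -0.34, while Bmp2 was higher. Without low-protein 1 the regulators had 9 of 18 higher and a median of 0.00, and without high-protein 1 the targets had 2 of 9 and a median of -0.22. Of all genes tested 47.5% were higher in this pair. With low fat against low protein 7 of 18 regulators and 1 of 9 targets were higher (medians -0.06 and -0.41), against 50.4% of all genes tested. That target count was 0 to 2 of 9 with any 1 library left out. Hjv, which encodes hemojuvelin, was at 66.9, 81.0, 79.6 and 51.8 CPM with high protein and 106, 106, 119 and 94.3 CPM with low protein. The groups did not overlap (log2 fold change -0.61, SE 0.20, edgeR unadjusted p = 0.00904, adjusted 0.921). Smad1, a SMAD activated by BMP receptors, was at 12.9, 13.0, 11.6 and 11.2 CPM with high protein and 13.1, 16.9, 17.4 and 13.3 CPM with low protein (log2 fold change -0.32, SE 0.14, edgeR unadjusted p = 0.0405, adjusted 0.960). The type I receptors Bmpr1a and Acvr1 were at 23.1 to 31.2 and 9.92 to 13.0 CPM with high protein and at 26.9 to 33.9 and 10.7 to 16.4 CPM with low protein.

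Hamp, the hepcidin gene, was at 413, 466, 273 and 472 CPM with high protein, 354, 468, 365 and 369 CPM with low protein, 352, 231, 224 and 367 CPM with low fat and 516, 410, 309 and 865 CPM in control. High and low protein overlapped (log2 fold change 0.06, SE 0.28, edgeR adjusted p = 0.998). With low fat Hamp was lower than control by a log2 fold change of -0.84 (SE 0.28, edgeR unadjusted p = 0.00852, adjusted 0.530). Its highest control was again control 4, and without that library the value was -0.52 (edgeR unadjusted p = 0.0379, adjusted 0.893). Of the 9 BMP targets 2 were higher with low fat than in control (median -0.44), and 5 were without control 4 (median 0.24). Id1, an early BMP target, was at 85.8 CPM in control 4 and 8.60 to 15.2 CPM in the other controls, and within high protein it ran from 8.55 CPM in replicate 4 to 42.9 CPM in replicate 3. Bmp2 did not share that order within high protein, where it was highest in replicate 4, but both genes were at their highest of the 16 libraries in control 4. Smad6, a feedback inhibitor induced by BMPs, was at 4.43 to 5.28 CPM with low fat and 6.36 to 8.77 CPM with low protein, without overlap (log2 fold change -0.66, SE 0.17, edgeR unadjusted p = 0.00153, adjusted 1).

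**Figure D4:**
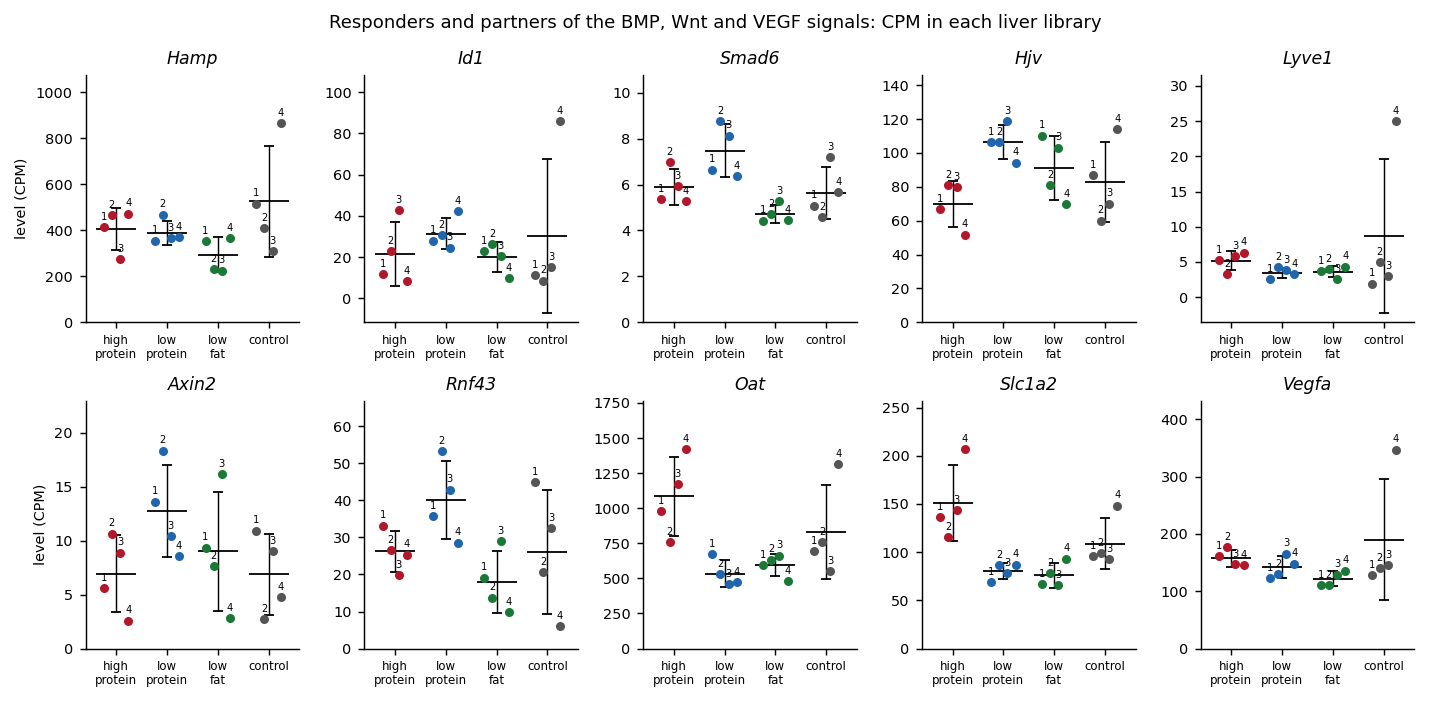
Level in CPM (y axis, linear) of 10 genes of the BMP, Wnt and VEGF pathways or of sinusoids in every library; points are animals marked by replicate number, with mean and SD of each diet (n = 4). Control 4 stands far above the other controls for Id1, Lyve1 and Vegfa and is the highest control for Hamp, and Hjv is lower with high than with low protein in every library.

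Targets of the Wnt and R-spondin signal had no common direction with high against low protein. Of 16 Wnt target and pericentral genes 8 were higher with high protein (median -0.01), close to the 47.5% of all genes tested (median -0.02). Of 16 receptors and regulators 6 were higher (median -0.11, or 8 of 16 and 0.00 without high-protein 3). Oat and Slc1a2, a pericentral aminotransferase of ornithine and a glutamate transporter, had the smallest p of the target list over the 4 diets. Both were higher in every high-protein library than in every low-protein one, as were 3.15% of all genes tested. Oat was at 979, 760, 1174 and 1422 CPM with high protein and 672, 528, 460 and 475 CPM with low protein (log2 fold change 1.02, SE 0.25, edgeR unadjusted p = 0.000848, adjusted 0.892). Slc1a2 was at 136, 116, 144 and 207 CPM with high protein and 69.2, 86.5, 78.2 and 87.0 CPM with low protein (log2 fold change 0.91, SE 0.19, edgeR unadjusted p = 0.000280, adjusted 0.787). Axin2, a feedback target of beta-catenin, was at 5.59, 10.7, 8.90 and 2.59 CPM with high protein and 13.6, 18.4, 10.4 and 8.55 CPM with low protein (log2 fold change -0.88, SE 0.52, edgeR adjusted p = 0.970). Rnf43, which removes Wnt receptors and is a target itself, was at 33.2, 26.7, 19.7 and 25.4 CPM with high protein and 35.7, 53.4, 42.9 and 28.6 CPM with low protein (log2 fold change -0.61, SE 0.44, edgeR adjusted p = 0.982). Glul, the glutamine synthetase of the innermost pericentral hepatocytes, was at 608 ± 84.7 CPM with high protein and 619 ± 38.4 CPM with low protein (SD, n = 4 each). Lgr4 and Lgr5, receptors of R-spondins, were at 51.1 to 67.4 and 2.71 to 8.57 CPM with high protein and at 45.9 to 63.2 and 3.15 to 8.84 CPM with low protein.

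Vegfa, the ligand of Kdr, was at 161, 178, 147 and 146 CPM with high protein, 123, 130, 166 and 148 CPM with low protein, 110, 111, 129 and 136 CPM with low fat and 128, 140, 145 and 347 CPM in control. On the TMM scale all high-protein libraries were above the low-fat ones, as were 4.23% of all genes tested (log2 fold change 0.38, SE 0.25, edgeR adjusted p = 0.633). By library totals high-protein 4 was below low-fat 3 and low-fat 4, so the groups overlapped. Control 4 was the highest library for both ligand and receptor on the TMM scale, and control 3 was above it for Kdr by library totals. Nrp1, a co-receptor for VEGF-A, was at 38.3, 48.9, 43.8 and 32.8 CPM with high protein and 64.0, 70.4, 64.1 and 69.6 CPM with low fat, without overlap (log2 fold change -0.71, SE 0.27, edgeR unadjusted p = 0.0182, adjusted 0.502), and control 4 was the lowest of the 16 libraries for it at 19.8 CPM.

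**Figure D5:**
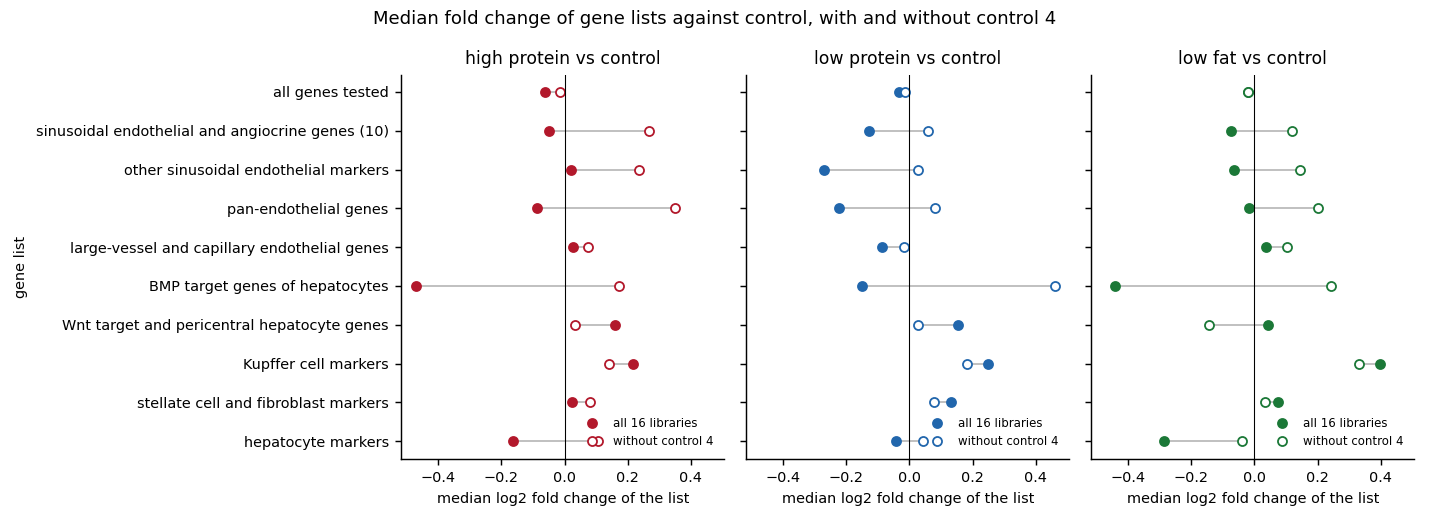
Median log2 fold change (x axis) of gene lists for each altered diet against control, with all 16 libraries (filled) and without control 4 (open). The 10 genes lie at -0.05, -0.13 and -0.07 with all libraries and at 0.27, 0.06 and 0.12 without control 4, whereas the median of all genes moves little.

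The genes that followed the 10 most closely over the libraries were Cd300lg, Gja4, Col13a1, Adgrf5 and Flt4, with Pearson correlations of 0.943, 0.933, 0.914, 0.910 and 0.899 between their log2 CPM and the mean standardised log2 CPM of the 10 genes over 16 libraries. These points share depth and scaling, and on the TMM scale each of the 5 genes was highest in control 4. Gja4, a gap junction protein of arterial endothelium, ran from 1.02 to 21.9 CPM, and Flt4, a VEGF receptor of sinusoidal and lymphatic endothelium, from 8.13 to 31.8 CPM.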

How the data were processed

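RNA was measured in 16 liver libraries, made with a directional kit per the labels' protocols. Groups and replicate numbers were taken from the sample titles. The authors deposited whole-number counts of reads per gene in 1 table, with gene positions and exon lengths. The submitters' processing notes name GRCm38.p6 and the tools STAR 2.7.0f, Trimmomatic 0.39, Subread 1.6.4, featureCounts and edgeR 3.32.1. Neither settings nor strand mode nor annotation release is given in the sources used here, so reads of overlapping genes on opposite strands could not be told apart. Symbols came from GENCODE M21, which matched 53861 of 54752 identifiers with the same positions. Hjv was matched by its RefSeq symbol synonym.

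Genes passing filterByExpr (17833) were fitted in edgeR 4.0.16 (R 4.3.3) with TMM factors and 4 group means over all 16 libraries (12 residual degrees of freedom). Contrasts tested the 6 diet pairs, and the 4 diets were tested together by the quasi-likelihood F test, two-sided, with Benjamini-Hochberg adjustment over all genes tested at 0.05. SE and 95% intervals come from the same test. CPM use TMM-scaled library sizes. Poisson intervals cover counting error only. Library totals of 35243594 to 112789127 counts set the precision of low genes. The steps were run on counts simulated around the mean of each gene, with 200 genes changed in the high-protein group. Those counts held no outlying library and no kidney RNA shared across genes, so that run does not cover these features.

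The 10 genes and 15 companion lists were chosen with earlier results of these data known. The lists were described by counts and medians with no set test, and 9 of 198 listed genes were not analysed here or did not pass the filter. Named companions were the 2 genes per list with the smallest p over the 4 diets, a set of receptors, ligands and targets taken whatever their values, and the 5 genes most like the 10; some are given only within their list. Alternatives were RLE factors, library totals without factors, DESeq2 1.42.0, voom with sample quality weights (limma 3.58.1), no filter, over 1 CPM in 4 libraries, the compared groups alone, the replicate number as a block, the kidney level as a covariate, and each library left out. Library totals, and the left-out libraries for companion lists and genes, were chosen after seeing the data.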

Additional observations from a re-analysis of the deposited data

Results flagged for a closer look

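In 128 groups of 4 libraries, formed by 32 genes and 4 diets, the gap of the highest or lowest library to its nearest neighbour was compared with the range of the group, and 12 groups had a gap large enough for Dixon's test at 95%. Chance gives about 1 in 20 such groups. The cause was not tested.

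Among the 10 sinusoidal genes, Stab1 in high-protein 2 (50.4 CPM against 61.5 to 62.1 CPM in the other 3) had a gap of 0.954 of the range and Clec4g in control 1 (21.7 CPM against 32.3 to 33.1 CPM) one of 0.932. Rspo3 in control 4 (5.99 CPM against 4.59 to 4.77 CPM) had a gap of 0.866 and Stab2 in control 4 (74.1 CPM against 31.9 to 38.6 CPM) one of 0.840. By library totals without TMM factors none of these 4 gaps passed: Rspo3 in control 4 was at 4.65 CPM, inside the other controls (4.48 to 5.52 CPM), and the gaps were 0.564 for Stab1, 0.490 for Stab2 and 0.241 for Clec4g.

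Control 4 was also apart for Lyve1 (0.869), Id1 (0.914) and Vegfa (0.919), in each case above the other controls. Control 1 was above the other controls for Lgr5 (0.944), at 11.1 CPM against 3.90 to 4.30 CPM, and control 3 for Wnt9b (0.865), at 1.33 CPM against 0.958 to 1.01 CPM.

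In the altered diets the gap was 0.870 for Hamp in low-protein 2 (468 CPM against 354 to 369 CPM), 0.884 for Hamp2 in low-fat 1 (16.7 CPM against 7.71 to 8.75 CPM) and 0.965 for Smad7 in low-fat 4, which was lower at 11.7 CPM against 19.7 to 20.0 CPM. Among the 8 genes outside the 10, the gaps of Hamp (0.881), Hamp2 (0.852) and Id1 (0.846) passed by library totals too, and those of Lyve1 (0.825), Wnt9b (0.681), Smad7 (0.808), Lgr5 (0.752) and Vegfa (0.702) did not.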

How the results depend on the processing

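No sinusoidal gene was called under any alternative run. Calls over all genes were 0 with the settings of the report. With DESeq2 they were 79 over the 4 diets, 1, 10 and 4 against control for high protein, low protein and low fat, 25 between high and low protein and 81 for high protein against low fat. High protein against low fat also gave 16 with the compared groups alone and 1 with voom weights. With 1 library left out the calls ran from 0 to 1 over the 4 diets, 0 to 2 for high against low protein, 0 to 19 for high protein against low fat and 0 to 109 for low fat against control, the last without control 3; the cause was not tested. Correlations of same-numbered deviations ran from -0.201 to 0.301, over 0.1 in 8 of 24 pairs. Their median was 0.0386, against -0.00531 for libraries of different number. These values do not decide whether the replicate number pairs animals, and the main fit did not use it. With the replicate block, calls were 0 in every comparison, and Bmp2 with high protein was 0.02, Wnt2 and Dnase1l3 with low protein 0.06 and 0.01 and Wnt2 with low fat 0.05 above control on the log2 scale.

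Directions against control turned under other alternatives and with single libraries left out. With voom weights the log2 fold change over control became 0.44, 0.44, 0.21, 0.27 and 0.30 for Bmp2, Bmp6, Stab2, Pecam1 and Kdr with high protein. It became 0.38, 0.62, 0.24, 0.14, 0.09, 0.13 and 0.23 for Bmp6, Wnt2, Dnase1l3, Stab1, Stab2, Pecam1 and Kdr with low protein, and 0.58, 0.15, 0.17 and 0.18 for Wnt2, Stab1, Stab2 and Kdr with low fat. Without normalisation factors it became 0.02 for Bmp2 with high protein, 0.10 and 0.04 for Wnt2 and Dnase1l3 with low protein and 0.11 for Wnt2 with low fat, and with the kidney level as covariate -0.08 for Bmp6 with low fat. With 1 library left out the ranges over control that crossed 0 were, with high protein, -0.26 to 0.45 (Bmp2), -0.51 to 0.04 (Bmp6), -0.24 to 0.21 (Stab2), -0.18 to 0.20 (Pecam1) and -0.18 to 0.18 (Kdr). With low protein they were -0.28 to 0.48 (Wnt2), -0.03 to 0.12 (Rspo3), -0.16 to 0.20 (Dnase1l3), -0.21 to 0.08 (Stab1), -0.40 to 0.06 (Stab2), -0.36 to 0.02 (Pecam1), -0.30 to 0.06 (Kdr) and -0.04 to 0.15 (Clec4g). With low fat they were -0.21 to 0.36 (Bmp6), -0.29 to 0.47 (Wnt2), -0.04 to 0.33 (Dnase1l3), -0.23 to 0.06 (Stab1), -0.35 to 0.10 (Stab2), -0.05 to 0.33 (Pecam1) and -0.30 to 0.05 (Kdr). Between high and low protein 1 gene turned, Bmp6 at -0.02 to 0.19. Wnt2, with 36 to 238 reads per library, is the gene whose precision depth limits most.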

Other observations

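Markers of Kupffer cells, the resident macrophages of the sinusoids, were above control in 10 of 10 genes with high protein, 8 of 10 with low protein and 10 of 10 with low fat (median log2 fold changes 0.22, 0.25 and 0.40), and 0 were called by edgeR. Without control 4 the counts were 9, 9 and 10 of 10 (medians 0.14, 0.18 and 0.33), without low-protein 4 the low-protein median was 0.09, and without low-fat 2 the low-fat median was 0.22. Folr2, a folate receptor of resident macrophages, was at 1.57, 2.06, 2.30 and 1.65 CPM with high protein, 1.96, 2.26, 2.33 and 1.53 CPM with low fat and 1.39, 1.18, 1.45 and 0.614 CPM in control. On the TMM scale all high-protein and all low-fat libraries were above the controls, as were 1.12% and 1.27% of all genes tested. The log2 fold changes of Folr2 were 0.70 and 0.80 (SE 0.28 each, edgeR adjusted p = 0.762 and 0.530). By library totals control 3 was above high-protein 1, high-protein 4 and low-fat 4 for this gene, so the groups overlapped. Adgre1, the macrophage marker F4/80, was at 9.59, 11.2, 8.54 and 6.80 CPM with low fat and 6.30, 7.03, 7.09 and 3.07 CPM in control, with overlap. Control 4 was the lowest of the controls for both. Without it Folr2 was higher by 0.49 with high protein and 0.56 with low fat, and Adgre1 by 0.38 with low fat, against 0.62 with all libraries.

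Cyp2e1, a pericentral cytochrome P450, was at 6153, 6179, 7147 and 7730.5 CPM with high protein and 4210.5, 4017, 4446.5 and 4806 CPM with low fat, without overlap (log2 fold change 0.64, SE 0.20, edgeR unadjusted p = 0.00562, adjusted 0.425). Porcn, which encodes the acyltransferase that makes Wnt ligands secretable, was at 15.8 CPM in control 4 and 1.67 to 4.04 CPM in the other 15 libraries. With high against low protein 7 of 13 other endothelial signals (median 0.00), 5 of 9 VEGF ligands and receptors (0.07), 3 of 7 cholangiocyte (-0.11), 4 of 8 hepatocyte (0.01) and 4 of 6 erythroid markers (0.80) were higher, and 0 were called by edgeR. Leaving out 1 library turned the median of the signals (-0.26 without high-protein 4), cholangiocyte (0.23 without high-protein 1) and hepatocyte markers (-0.02 without high-protein 2), and the erythroid median was 0.42 without high-protein 4.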
